A study of Homo sapiens with 12 samples.

Results

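The zinc finger genes of human chromosome 19 that carry a ZNF number as their symbol made up 252 of the 26125 entries of the deposited expression table. They were chosen by name (ZNF, digits and at most 1 closing letter) and by a deposited locus on chromosome 19. This rule uses no expression value, but it was set with earlier results of these data known. RNA was sequenced from Caco-2 cells, derived from a human adenocarcinoma of the colon and able to form a polarised sheet that resembles absorptive epithelium, after 21 days of growth on transwell inserts. Of 4 groups of 3 libraries, the controls (labelled as having no treatment) received buffer alone. The CW14 group received the bacterium Bacillus subtilis CW14, which the series title calls a probiotic. The OTA group received ochratoxin A, a mould toxin of food, at 15 µmol/L in the apical chamber, and the combined group received both. All groups are 1 tumour cell line, the labels give no exposure time, and nothing in them says that the libraries came from separate cultures, so p-values measure the spread between these libraries, which may be technical.

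Zinc finger proteins of the C2H2 kind bind DNA through rows of small zinc-holding loops, each reading a short stretch of bases. Chromosome 19 holds most of the large clusters of such genes, many of which encode an amino-terminal KRAB box. That box recruits the co-repressor TRIM28, which in turn brings the histone methyltransferase SETDB1 and heterochromatin proteins, and the family is best known for silencing retrotransposons.

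Values are FPKM, fragments scaled to transcript length and library size by the authors, so levels can be compared between genes. Differences are on the log2(FPKM + 1) scale, which understates the change of low genes. A gene was called at a limma adjusted p under 0.05 over the 12928 genes whose mean over all libraries was 1 FPKM or more. Errors beside FPKM are the SD of 3 libraries. Of the 252 genes, 18 were listed at 0 in all 12 libraries, 82 were above 0 with a mean under 1 FPKM, and 152 were tested. The filter used the mean of all groups: 0 tested genes reached 1 FPKM in a single group alone, 19 had a group mean under 1 FPKM, and 10 untested genes reached 1 FPKM in some group. The loci of 16 tested genes overlap another entry, with which they may share fragments, since the labels do not say that strand was recorded.

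Across the series, the cells expressed epithelial markers: CDH1 lay at 204 to 347 FPKM, while the brush-border enzyme gene SI lay at 0.148 FPKM or below. Of 9 Caco-2 and enterocyte markers, 8 were tested. With OTA 1 rose (VIL1, a brush-border protein, from a mean of 20.2 to 32.9 FPKM) and 1 fell (KRT20, a keratin of intestinal epithelium, from 11.9 to 6.25 FPKM, and to 3.90 FPKM in the combined group). With CW14, 0 were called in limma. The combined group had 1 higher (CDX2) and 2 lower (CDH1 and EPCAM) than OTA, and 3 higher and 1 lower than control. Their summed level was 4847 to 5225 FPKM in controls, 4185 to 4680 with CW14, 6420 to 6937 with OTA and 6250 to 20169 in the combined group. APOA1 held most of that sum, with a mean of 3910 FPKM in controls and 5322 with OTA (not called, limma adjusted p = 0.419). Combined libraries of APOA1 held 7219, 5364 and 19185 FPKM, the last in combined replicate 3. The part of these markers in the zinc finger results was not tested. The leukocyte marker PTPRC was listed at 0 in all 12 libraries. The summed level of 4 markers of other cells (PTPRC, PECAM1, COL1A1 and VIM) was 4.69 to 5.05 FPKM in controls, 3.98 to 6.29 with CW14, 7.28 to 7.76 with OTA and 7.48 to 9.86 in the combined group. VIM, also expressed by dedifferentiated epithelium, held most of that difference, with 1.93 ± 0.379 FPKM in controls and 4.29 ± 0.906 with OTA; its part in the zinc finger results was not tested. Combined replicate 3 stood apart, with a residual SD of 0.588 against 0.305 to 0.424 in the other 11 libraries. Its deviation from the all-library mean followed transcript GC content (rho = 0.51 over all genes with a GC value, against -0.31 to 0.25 in the others). The tested zinc finger transcripts are poor in GC, with a median of 43.0% against 49.3% over all genes tested. For the combined group, counts and medians of the members are given also without that library, as are named genes that lost their call or moved by over 1.5 times without it.

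Promoter sequences are shown for 4 of the genes whose RNA was lowest relative to control with OTA, so that their start sites can be set beside each other. These genes were picked by that fall, so their shared direction is not a result. Each runs from 250 bases before to 50 after a start listed by RefSeq on GRCh38.p14, 5′ to 3′ on the strand of the gene. Capitals mark GGGCGG (reverse strand CCGCCC) and CCAATC (reverse strand GATTGG), and no base lies in both words. The windows are chr19:2900678-2900977 on the plus strand for ZNF57, chr19:42075916-42076215 on the plus strand for ZNF574, chr19:58182811-58183110 on the plus strand for ZNF274 and chr19:11738897-11739196 on the minus strand for ZNF823. For ZNF57 and ZNF574 another start is also listed, and ZNF799, whose fall was the third largest, has 2 listed starts that are not shown.
ZNF57: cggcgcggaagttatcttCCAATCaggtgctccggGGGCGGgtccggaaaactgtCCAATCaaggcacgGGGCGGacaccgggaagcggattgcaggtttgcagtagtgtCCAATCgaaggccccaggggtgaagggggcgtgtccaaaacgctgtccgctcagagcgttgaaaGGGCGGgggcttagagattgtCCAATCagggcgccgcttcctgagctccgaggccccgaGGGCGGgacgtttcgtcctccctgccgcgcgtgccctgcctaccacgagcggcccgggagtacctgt
ZNF574: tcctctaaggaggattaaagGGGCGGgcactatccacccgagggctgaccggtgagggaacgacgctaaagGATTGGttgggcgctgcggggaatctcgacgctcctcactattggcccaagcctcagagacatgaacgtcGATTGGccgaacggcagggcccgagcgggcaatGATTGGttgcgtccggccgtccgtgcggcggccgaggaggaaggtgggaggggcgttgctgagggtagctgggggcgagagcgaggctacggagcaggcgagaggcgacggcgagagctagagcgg
ZNF274: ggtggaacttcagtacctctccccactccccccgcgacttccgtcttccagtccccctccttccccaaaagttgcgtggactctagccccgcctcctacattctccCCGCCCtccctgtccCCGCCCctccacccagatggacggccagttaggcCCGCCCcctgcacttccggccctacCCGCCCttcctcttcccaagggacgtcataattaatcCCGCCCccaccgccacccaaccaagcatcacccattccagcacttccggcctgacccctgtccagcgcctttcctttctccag
ZNF823: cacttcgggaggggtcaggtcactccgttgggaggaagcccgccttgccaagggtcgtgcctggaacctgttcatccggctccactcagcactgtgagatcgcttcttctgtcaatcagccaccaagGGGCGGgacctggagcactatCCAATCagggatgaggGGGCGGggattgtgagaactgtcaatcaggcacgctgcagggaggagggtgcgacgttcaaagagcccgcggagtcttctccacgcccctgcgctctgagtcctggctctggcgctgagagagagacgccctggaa

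These 4 windows hold GGGCGG 4, 1, 5 and 2 times and CCAATC 4, 3, 0 and 1 times, in the order shown. The other window of ZNF57 holds them 1 and 0 times and that of ZNF574 0 and 0 times, while those of ZNF799 hold GGGCGG 3 and 0 times and CCAATC 0 times each. GGGCGG is the core of a GC box and CCAATC of a CCAAT box, both common near start sites. Over the 163 promoters listed for 133 tested chromosome 19 zinc finger genes, 62.6% held GGGCGG on either strand, against 45% of all 35116 RefSeq promoters of this length. CCAATC was added as a word after promoters of these genes were seen, so its share among them is not set against that of all promoters. TGACGTCA, the cAMP response element, was in 3.68% against 1.85%, and ACTACAA, part of the site of ZNF143, in 6.75% against 2.77%. The median number of CpG pairs was 21, against 14 over all promoters. The member promoters are of tested genes only, while all promoters include those of genes not tested. The part of expression in these differences was not tested. Among 48 promoters of genes called lower with OTA, 77.1% held GGGCGG, 2.08% TGACGTCA and 8.33% ACTACAA. Among the 115 of genes not called, the shares were 56.5%, 4.35% and 6.09%. CCAATC was picked from promoters of genes that fell, so its shares by call are not given. These counts describe letters in a window; no factor binding was measured.

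Most of these genes were expressed at low levels. The median of their mean levels was 3.63 FPKM, against 10.5 over all genes tested, and 28 of the 152 had a mean of at least 10 FPKM. The highest was ZNF581, with 111 ± 4.02 FPKM in controls and 124 ± 6.84 with OTA. Below it came ZNF787, ZNF358, ZNF146, ZNF444 and ZNF580, with control means of 72.9, 45.1, 50.9, 36.7 and 30.6 FPKM. Mean levels over all libraries of ZNF358, ZNF146 and ZNF444 (55.8, 47.8 and 46.5 FPKM) lay closer together than the spread of their combined libraries, so their order is not resolved. ZNF146 encodes little but fingers, and its locus overlaps ZNF565. None of these 6 encodes a KRAB pattern by the reading-frame search described with the protein features. Of the 12 most abundant members, ZNF57 alone was called with OTA; the others of the 12 were ZNF83, ZNF524, ZNF302, ZNF579 and ZNF160, with control means of 29.4, 21.3, 20.7, 21.0 and 19.8 FPKM.

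OTA against control asked what the toxin alone did to these cells. With OTA, 45 of the 152 tested zinc finger genes fell and 0 rose in limma (1 was higher at an unadjusted p under 0.05). Over all genes tested, 12.9% were called lower and 4.82% higher, so the members' 29.6% called lower stands beside a background of 12.9%. The median difference of the members was -0.40, with 119 below 0, against a median of 0.03 over all genes. Libraries of the 2 groups did not overlap, with OTA lower, in 81 of the 152 (53.3%), against 25.7% of all genes. A fall of 1 or more (log2) was seen in 23 of the 45 called. In RNA of a whole cell sheet, fewer expressing cells and less RNA per cell cannot be told apart.

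Read library by library, the median level of the tested members was 4.67, 4.25 and 4.40 FPKM in controls and 2.55, 2.81 and 2.63 FPKM with OTA. Every OTA library lay below every control. The same medians over all genes tested were 10.2 to 10.3 FPKM in controls and 9.38 to 9.65 with OTA. The count of falls moved with the libraries used: it was 28 without control replicate 1, 24 without OTA replicate 3 and 66, beside 5 rises, without combined replicate 3, which enters only the shared estimate of spread. In the same order, 1240, 1091 and 2461 of all genes fell and 331, 208 and 1903 rose. Centring each library on its median moved the median difference of all genes from 0.03 to 0.13 and the split over all genes from 623 higher and 1665 lower to 1153 and 1342; the members then had 0 higher in limma (6 at an unadjusted p under 0.05) and 32 lower, with a median of -0.29.

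ZNF57, a KRAB gene with 13 fingers (chromosome 19, 2900894 to 2918474 in hg19), had the largest fall. It stood at 45.9, 39.4 and 29 FPKM in controls and at 7.09, 9.70 and 4.30 FPKM with OTA. Even the lowest control lay far above the highest OTA library (log2 difference -2.32, SE 0.28, limma adjusted p = 0.000159). CW14 libraries held 30.1, 29.7 and 16.9 FPKM and combined libraries 4.72, 4.02 and 3.21 FPKM. Thus the libraries without OTA and those with it did not overlap for this gene.

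ZNF574, with 18 fingers and no KRAB pattern (42580288 to 42585720), held 22.5, 22.2 and 19.1 FPKM in controls and 5.13, 4.53 and 2.46 FPKM with OTA. Its OTA libraries all lay below the controls (-2.18, SE 0.20, limma adjusted p = 1.89e-05). With CW14 it stood at 12.1, 15.1 and 11 FPKM, below each control but not called (-0.70, limma adjusted p = 0.37). In the combined group it stood at 5.06, 5.12 and 5.34 FPKM, close to the upper end of the OTA libraries.

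ZNF274, a KRAB and SCAN protein known to bind the ends of other zinc finger genes and to bring SETDB1 there, lies near the end of the long arm (58694354 to 58724928). Its level was 23.4, 23.9 and 20.1 FPKM in controls and 5.97, 6.58 and 6.21 FPKM with OTA. The 2 groups were far apart and each was tight (-1.69, SE 0.17, limma adjusted p = 3.49e-05). CW14 libraries, at 23.2, 19.8 and 21.7 FPKM, lay within or just below the range of the controls.

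ZNF823, a KRAB gene with 15 fingers in the cluster of the short arm (11832078 to 11849824), held 27.0, 22.6 and 20.5 FPKM in controls and 6.72, 9.43 and 5.68 FPKM with OTA. Groups were separate (-1.57, SE 0.17, limma adjusted p = 7.25e-05). From the same cluster, ZNF799 went from 14.7, 11.7 and 7.77 FPKM in controls to 1.88, 2.60 and 1.90 FPKM with OTA. All its OTA libraries were below the lowest control (-1.96, SE 0.31, limma adjusted p = 0.000929).

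ZNF430, from the cluster next to the centromere, fell from 11.5 ± 1.29 to 3.71 ± 1.14 FPKM. ZNF114, with 3 fingers by the reading-frame search, fell from 5.51 ± 0.855 to 1.41 ± 0.152 FPKM. ZNF628, which has no KRAB pattern, fell from 6.73 ± 0.63 to 1.92 ± 0.413 FPKM. Each of these had a log2 difference between -1.44 and -1.41. ZNF222 fell from 5.66 ± 1.85 to 1.47 ± 0.196 FPKM and ZNF317 from 13.2 ± 1.69 to 4.52 ± 1.07 FPKM (-1.40 and -1.38). The 10 genes named as largest falls kept their call in each alternative tried. The other 35 called falls ran from -1.33 for ZNF44 to -0.58 for ZNF320. The ZNF320 call was lost with centring, quantile normalization or the replicate block. It was also lost without control replicate 1, control replicate 2 or any OTA library.

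Several of these falls were of genes that lie near each other, in clusters where other members were not called with OTA. Most of the neighbours described here were named after their values were seen. On the short arm, ZNF44 (12382623 to 12405714), near ZNF799, held 7.06, 5.41 and 6.62 FPKM in controls and 1.83, 2.41 and 1.58 FPKM with OTA. In the same stretch, ZNF564 (12636182 to 12662356) held 7.91, 8.07 and 8.22 FPKM in controls and 3.35, 3.43 and 3.11 FPKM with OTA, with little spread within either group (-1.08, SE 0.17, limma adjusted p = 0.00103). ZNF443 fell from 3.91 ± 0.846 to 1.27 ± 0.174 FPKM, a call lost without control replicate 1 or OTA replicate 3 or with a pseudocount of 0.1. ZNF791 fell from 10.3 ± 2.5 to 4.04 ± 1.58 FPKM. All 4 encode a KRAB pattern and 14 to 17 fingers.

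On the long arm, ZNF222 (44529492 to 44537262) lies, by locus, between ZNF155 and ZNF223. ZNF223 held 9.81, 8.14 and 8.37 FPKM in controls and 3.44, 3.33 and 2.65 FPKM with OTA (-1.24, SE 0.19, limma adjusted p = 0.000937), and ZNF155 fell by 1.21. Farther out, ZNF766 (52772822 to 52795976), whose locus overlaps MIR643, held 19.7, 19 and 17.1 FPKM in controls and 7.59, 8.82 and 7.61 FPKM with OTA. Close to it, ZNF480 (52800420 to 52829180), held 7.78, 5.85 and 7.34 FPKM in controls and 2.62, 2.39 and 2.30 FPKM with OTA. In ZNF222, ZNF223, ZNF155, ZNF766 and ZNF480 each OTA library lay below each control. Not all neighbours were called. ZNF230, between ZNF155 and ZNF222, held 1.69 ± 0.0273 FPKM in controls and 0.752 ± 0.522 with OTA. Its OTA libraries, at 1.04, 0.149 and 1.06 FPKM, also lay below each control. ZNF224, in the same cluster, held 7.44 ± 0.634 and 8.32 ± 0.39 FPKM. ZNF419, near the end of the arm, fell from 5.67 ± 0.95 to 1.87 ± 0.473 FPKM. ZNF845, with 26 fingers, fell from 5.43 ± 1.38 to 2.23 ± 0.58 FPKM, a call lost without any one of the control or OTA libraries. That call was also lost with a pseudocount of 0.1, with no filter and with centring.

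**Figure D1:**
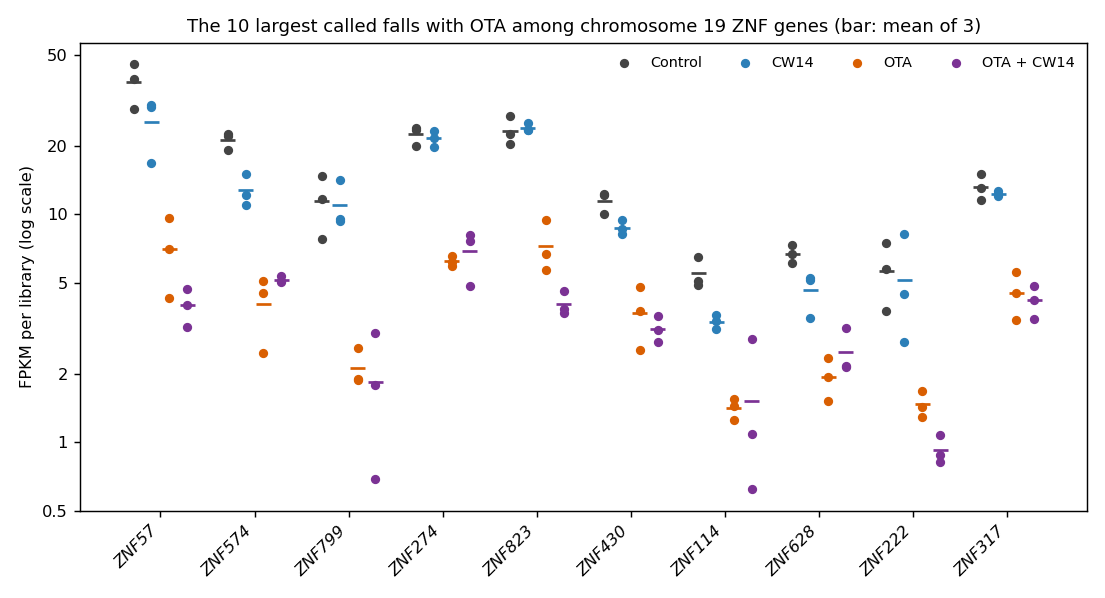
FPKM of each library (points, log axis) and the mean of 3 (bars) for the 10 largest called falls with OTA, by group. In each gene the OTA points lie below the control points, as for ZNF57 at 4.30 to 9.70 against 29 to 45.9 FPKM. Combined points lie near the OTA points or below them all, as in ZNF823 and ZNF222. CW14 points reach below the controls in some genes.

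Other members were chosen for what is known of them, and 6 of these were not tested. ZNF91, which represses SVA elements and has 32 fingers, the most of any tested member, stood at 8.78, 6.95 and 8.37 FPKM in controls and 6.85, 8.76 and 8.42 FPKM with OTA. Its groups overlapped (0.00 apart by mean, SE 0.23). ZNF93, which represses LINE elements, had 2.53 ± 0.468 FPKM in controls and 2.38 ± 0.348 with OTA, and ZNF808, needed for pancreas development, 3.68 ± 1.06 and 2.85 ± 0.404. Neither was called. ZNF331, an imprinted gene, had 7.11 ± 0.759 and 5.13 ± 0.515 FPKM, with no overlap of libraries but no call (-0.40, limma adjusted p = 0.12). ZNF816 fell from 5.52 ± 1.24 to 3.01 ± 0.196 FPKM (-0.68, limma adjusted p = 0.0293), a call lost without any of control replicate 1, control replicate 3 or the OTA libraries. That call was also lost with no filter, with centring and with the replicate block. ZNF816 shares its locus with ZNF321P. ZNF382, ZNF671, ZNF154 and ZNF132, reported as methylated in tumours, had means of 0.174 to 0.356 FPKM over all libraries and were not tested. ZNF43 had a mean of 0.0178 FPKM, and ZNF85 was listed at 0 in each library.

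Along chromosome 19, counts were taken in 7 regions (bounds in megabases of the deposited hg19 locus start), to be read beside the 12.9% of all genes called lower. From 0 to 7 the region held 5 members, 3 of them tested and 1 called lower; that one is ZNF57. From 7 to 14, 10 of 23 tested members (43.5%) were called lower with a median difference of -0.44, and here lie ZNF823, ZNF799, ZNF44 and ZNF317. From 14 to 25, next to the centromere, 2 of 16 were called lower (12.5%, at the background) with a median of -0.15; this region holds ZNF91, ZNF93, ZNF430, ZNF431 and ZNF254. On the long arm, 4 of 18 (22.2%) were called lower from 25 to 39 with a median of -0.09, and 7 of 26 (26.9%) from 39 to 51 with a median of -0.19. Toward the end, 8 of 26 (30.8%) were called lower from 51 to 54 with a median of -0.51, and 13 of 40 (32.5%) from 54 to 60 with a median of -0.49. Differences between regions were not tested.

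**Figure D2:**
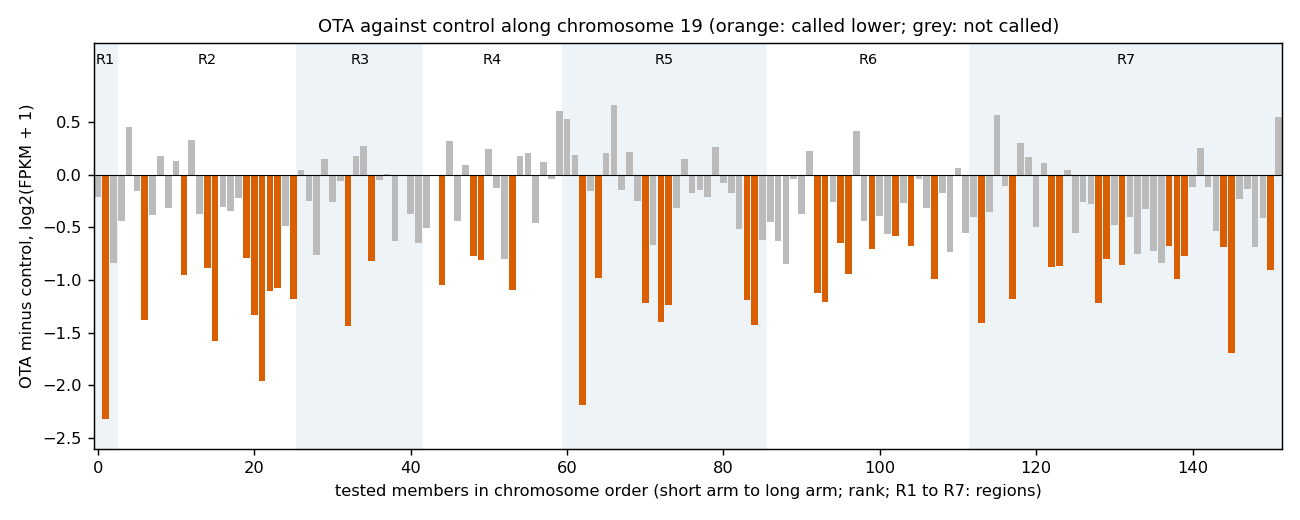
OTA minus control, in log2(FPKM + 1), for the 152 tested members ranked along chromosome 19, with shading for the 7 regions (R1 to R7, in the order of the text). Orange bars are the 45 called lower and grey bars those not called; orange bars stand in each region, fewest in the third (2 of 16) among regions with over 10 tested members.

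By protein features, a reading frame was found for 150 tested members, and 120 of these held a KRAB pattern. The number of fingers ran from 0 for ZNF738 to 32 for ZNF91, with a median of 12. Of the 120 KRAB genes, 38 (31.7%) fell with OTA (median difference -0.42), and of the 30 without the pattern, 6 (20%) fell (median -0.32), beside 12.9% of all genes. The remaining called gene, ZNF137P, gave no reading frame. KRAB members had lower levels (median 3.11 against 7.12 FPKM) and poorer GC (median 42.3% against 61.5%), and the 2 sets were not tested against each other. Across the members, the difference with OTA had a rank correlation of 0.11 with finger number (150 genes) and of -0.08 with transcript GC content (152 genes), values from the same libraries given as a description.

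For comparison, ZNF genes on other chromosomes moved in a similar way: 55 of 207 tested fell with OTA and 4 rose (median -0.27). Other genes on chromosome 19 did not follow: 84 of 724 fell and 30 rose, with a median of 0.08. Among all 4245 tested genes with a GC content under 45%, 12.9% were called lower and the median was 0.01, beside the members' 29.6% and -0.40. These sets are described by counts, and differences between them were not tested.

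**Figure D3:**
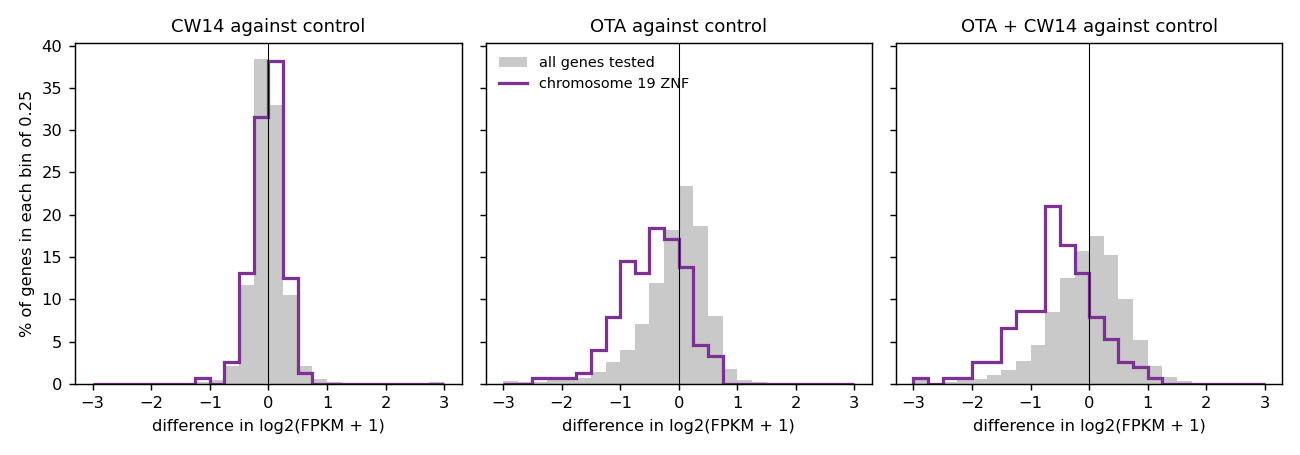
Share of genes (percent, in bins of 0.25) by difference from control in log2(FPKM + 1), for the 152 members (line) and all 12928 genes tested (grey), with the end bins holding values beyond 3 in size. With CW14 both shapes centre near 0 (medians 0.02 and -0.02); with OTA and in the combined group the members lie to the left (medians -0.40 and -0.54) of all genes (0.03 and 0.02).

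CW14 against control asked what the bacterium alone did. Of the 152 members, 0 were called in limma, against 0.364% of all genes tested, and 8 had an unadjusted p under 0.05. The median difference was 0.02. Median levels of the members were 4.22, 4.77 and 4.41 FPKM in the CW14 libraries, within or close to the range of the controls. The largest difference was that of ZNF296, a finger protein without a KRAB pattern (45574756 to 45579688). It stood at 12.5, 11.7 and 12.6 FPKM in controls and at 4.91, 5.66 and 5.31 FPKM with CW14. The groups did not overlap, yet the test was not passed (-1.08, SE 0.29, limma adjusted p = 0.294). Without combined replicate 3, or with only the compared groups fitted, ZNF296 was the 1 member called (limma adjusted p = 0.0186 and 0.0293). Of all genes, 55 were higher and 68 lower in the first of these fits, and 17 and 18 in the second. Over the alternatives for ZNF296 the limma adjusted p ran from 0.0186 to 0.792. With OTA it stood at 6.79, 4.73 and 3.42 FPKM and was called lower (-1.19, limma adjusted p = 0.015), a call lost without control replicate 3 or OTA replicate 3.

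The combined group against OTA asked whether the bacterium changed levels in the presence of the toxin. Of the 152 members, 5 were higher and 3 lower, against 7.79% and 8.22% of all genes tested, so the members' shares of 3.29% and 1.97% lay below the background; called in either direction were 8 members, against 16.0% of all genes. The median difference was -0.07. Without combined replicate 3, 12 were called (7 higher, 5 lower) and the median was 0.06, and with a correction for GC content 9 were called (7 higher, 2 lower). Of all 12928 genes, 1217 were higher and 1521 lower without that library. With the correction, 711 were higher and 963 lower of 12157. Median member levels were 2.76, 3.47 and 1.90 FPKM in the combined libraries, the last of these in combined replicate 3, beside 2.55, 2.81 and 2.63 FPKM with OTA.

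ZNF324, a KRAB gene with 9 fingers (58978410 to 58984945), had the largest rise. It held 1.84, 0.972 and 0.829 FPKM with OTA and 2.69, 3.43 and 4.07 FPKM in the combined group (1.01, SE 0.22, limma adjusted p = 0.0135). Controls stood at 3.01, 2.71 and 3.51 FPKM, so the combined libraries spanned the range of the controls while the OTA libraries lay below it (OTA against control -0.90, limma adjusted p = 0.0145, a call lost without control replicate 3, OTA replicate 2 or OTA replicate 3). ZNF155 (44488320 to 44507022) showed a similar order at 4.40, 4.31 and 4.94 FPKM in controls, 1.03, 1.77 and 1.42 with OTA and 2.13, 2.73 and 3.54 in the combined group. Its combined libraries lay between the other 2 groups without overlap (0.65 above OTA, limma adjusted p = 0.0482), a call lost without combined replicate 3 (0.52, limma adjusted p = 0.0915). The locus of ZNF155 overlaps LOC101928063.

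ZNF837, ZNF444 and ZNF814 were also higher than with OTA, by 0.94, 0.77 and 0.66. Without combined replicate 3 these values were 0.62, 0.50 and 0.47, and the calls of ZNF837 and ZNF814 were lost (limma adjusted p = 0.102 and 0.0649). ZNF444, a SCAN-domain protein, held 34.4, 46.8 and 38.1 FPKM with OTA and 58.1, 54.3 and 100.0 FPKM in the combined group. Its highest value was that of combined replicate 3. ZNF254, from the cluster next to the centromere (24216205 to 24312769), had the largest fall, from 12.4, 14.6 and 11.8 FPKM with OTA to 5.23, 6.95 and 2.79 FPKM in the combined group. There was no overlap (-1.28, SE 0.24, limma adjusted p = 0.00771). Its transcript has a GC content of 33.5%, and its lowest value was again in combined replicate 3. ZNF431 and ZNF823 fell by 0.94 and 0.69, and without that library by 0.50 and 0.64. With the GC correction the calls of ZNF837, ZNF444, ZNF431 and ZNF823 were lost.

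These 8 calls rested on the pooled spread and on few libraries. With only the OTA and combined groups fitted, 0 of the 152 members were called in limma, and 15 had an unadjusted p under 0.05. That fit called 32 higher and 38 lower over all 12928 genes tested. ZNF254 alone kept its call without each library in turn; the other 7 lost it without OTA replicate 2, and the members called then numbered 1. The count was 2 without OTA replicate 1, 3 without OTA replicate 3, 25 (5 higher, 20 lower) without combined replicate 2, and 4 without each of control replicate 2, control replicate 3, CW14 replicate 1 and CW14 replicate 3. All genes called moved too: 454 higher and 491 lower without OTA replicate 1, 307 and 346 without replicate 2, 333 and 420 without replicate 3. Without combined replicate 2 they numbered 1719 higher and 1669 lower of 12928. In the fits that gave 4 members, 691 to 824 genes were higher and 776 to 915 lower. Centring on the library median gave 3 higher and 5 lower, and over all genes it changed the split from 1007 higher and 1063 lower to 774 and 1335. Members' differences followed transcript GC content with a rank correlation of 0.38 over 152 genes, and of 0.15 without combined replicate 3, both as descriptions. Among all genes with a GC content under 45%, 15.3% were called lower than OTA and 2.00% higher.

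**Figure D4:**
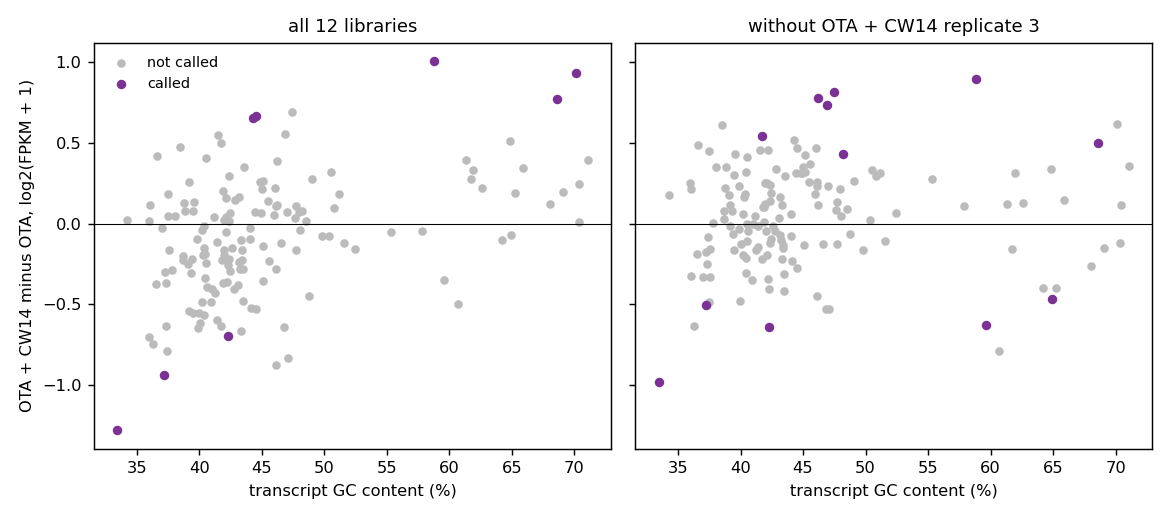
Combined group minus OTA, in log2(FPKM + 1), against transcript GC content (percent) for the 152 tested members, with all 12 libraries (left) and without combined replicate 3 (right); filled purple points are called genes. The trend is looser on the right (rank correlation 0.15 against 0.38), and the called gene at the lower left of both panels is ZNF254 at 33.5% GC.

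The combined group against control asked what both agents together did. Here 52 of the 152 members fell and 4 rose, against 16.8% and 12.0% of all genes tested, with a median difference of -0.54. Without combined replicate 3, 49 fell and 7 rose, with a median of -0.33. With the GC correction, 39 fell and 8 rose, with a median of -0.29. Of all genes tested, 2458 fell and 1768 rose without that library. With the correction, 1763 fell and 1713 rose of 12157. The members' 34.2% called lower also stands beside 26.3% among all tested genes with a GC content under 45%. The falls of members numbered 34, beside 3 rises, without control replicate 1, and the total of 56 (against 28.8% of all genes called in either direction) then became 37. All genes then had 1519 falls and 746 rises. This comparison shares its controls with that of OTA, so they are not independent.

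ZNF57 had the largest fall, to 4.72, 4.02 and 3.21 FPKM (-2.96, SE 0.28, limma adjusted p = 2.06e-05). ZNF823 followed at 3.84, 4.62 and 3.68 FPKM (-2.27, SE 0.17, limma adjusted p = 3.68e-06). All combined libraries of both genes lay far below their controls. ZNF799, ZNF254, ZNF567, ZNF574, ZNF222, ZNF77, ZNF430 and ZNF274 fell by 2.18, 1.93, 1.89, 1.85, 1.75, 1.67, 1.60 and 1.60. Of these, ZNF77, the neighbour of ZNF57, held 7.10, 9.18 and 5.47 FPKM in controls, 3.57, 3.22 and 3.85 with OTA and 1.82, 2.52 and 0.673 in the combined group. Its OTA libraries lay between the other 2 groups and were not called against either (limma adjusted p = 0.0529 and 0.0566).

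The 4 rises were ZNF428, ZNF814, ZNF444 and ZNF585A. ZNF428, whose locus overlaps SRRM5, held 8.10, 12.4 and 9.67 FPKM in controls and 20.6, 15.4 and 32.1 FPKM in the combined group (1.06, limma adjusted p = 0.0136). Groups did not overlap, and the call was lost without control replicate 1. ZNF814, with 23 fingers, held 2.48, 3.06 and 3.13 FPKM in controls and 4.85, 5.95 and 8.57 FPKM in the combined group (0.91, limma adjusted p = 0.005). ZNF444 rose by 0.88 and ZNF585A by 0.75, the latter call being lost without any of the controls, CW14 replicate 1, combined replicate 1 or combined replicate 3. With only the compared groups fitted, the calls of ZNF428, ZNF444 and ZNF585A were lost. The highest combined value of ZNF428, ZNF814 and ZNF444 was that of combined replicate 3.

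The interaction asked whether the difference made by CW14 was another with OTA than without it. Of the 152 members, 0 were called in limma, against 3.33% of all genes tested, and 18 had an unadjusted p under 0.05. The lowest adjusted p was that of ZNF784, with control values of 12.9, 10.7 and 11.5 FPKM, CW14 values of 9.61, 6.04 and 7.14, OTA values of 4.00, 4.95 and 4.89 and combined values of 5.42, 6.79 and 9.21. CW14 libraries lay below the controls, while combined libraries lay above the OTA libraries (interaction 1.09, SE 0.28, limma adjusted p = 0.0534). It was called without combined replicate 2 or 3 (limma adjusted p = 0.0423 and 0.0358), where the members called numbered 7 and 5. Of all 12928 genes tested, 779 were higher and 742 lower without combined replicate 2, and 782 and 813 without combined replicate 3.

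The partners of KRAB proteins were described from a list of 36 co-repressor and heterochromatin genes, all of which were tested. With OTA, 3 of them rose and 4 fell, beside the 4.82% and 12.9% of all genes, and the median difference was 0.06. TRIM28, the direct partner of the KRAB box, held 49.1, 58.0 and 59.5 FPKM in controls and 66.5, 60.6 and 54 FPKM with OTA. Its groups overlapped (0.12, SE 0.18, limma adjusted p = 0.698). SETDB1 held 7.95, 10.3 and 7.89 FPKM in controls and 10.1, 8.73 and 9.09 with OTA, also overlapping (0.09, SE 0.18).

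The genes that rose were CBX5 and CBX1, which encode heterochromatin proteins, and RBBP7, a histone-binding subunit of deacetylase complexes. CBX5 went from 13.1, 14.1 and 12.2 FPKM in controls to 22.5, 25.3 and 25 FPKM with OTA (0.84, limma adjusted p = 0.0184), with no overlap. CBX1 and RBBP7 rose by 0.49 and 0.43. The genes that fell were MORC3 and SUV39H1, both acting on heterochromatin, and ATF7IP and ATF7IP2, partners of SETDB1. MORC3 went from 17.5, 14.4 and 15.2 FPKM to 8.87, 9.41 and 7.66 FPKM (-0.79, limma adjusted p = 0.015). ATF7IP, ATF7IP2 and SUV39H1 fell by 0.81, 0.64 and 0.59. Each of these 7 calls was lost without at least 1 library: MORC3 without control replicate 1 or OTA replicate 3, ATF7IP2 without OTA replicate 3, CBX5 without control replicate 1, control replicate 3, OTA replicate 2 or OTA replicate 3, and CBX1 without control replicate 1, control replicate 3, OTA replicate 1 or OTA replicate 2. SUV39H1, RBBP7 and ATF7IP lost theirs without any of the control or OTA libraries, the last 2 also without some CW14 and combined libraries. With centring, quantile normalization or the replicate block, the calls of SUV39H1 and ATF7IP were also lost, and with quantile normalization that of CBX1.

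With CW14, 0 of the 36 were called in limma, and 1 had an unadjusted p under 0.05. In the combined group against OTA, 5 rose (MPHOSPH8 by 1.04, UHRF1 by 0.82, ATF7IP2 by 0.67, SUV39H1 by 0.65 and DAXX by 0.42) and MORC3 fell by 0.88, beside 7.79% and 8.22% of all genes. Each of these 6 calls was lost without OTA replicate 2 and with only the compared groups fitted. MPHOSPH8 was higher by 0.63 without combined replicate 3. With the GC correction the calls of UHRF1, SUV39H1 and DAXX were lost. The interaction was called for 2 of the 36, SUV39H1 and DAXX, beside 3.33% of all genes. In the combined group against control, 4 rose (EHMT2 by 1.26, KDM1A by 0.77, MTA1 by 0.73 and RBBP7 by 0.40) and 2 fell (MORC3 by 1.67 and ATF7IP by 0.93, or 0.61 without combined replicate 3). The 4 and 2 of 36 are no larger shares than the 12.0% and 16.8% of all genes. MORC3 held 5.05, 5.32 and 2.73 FPKM there, below all OTA libraries. EHMT2, a histone methyltransferase, held 7.32, 7.22 and 18.2 FPKM against 2.98, 3.95 and 3.89 in controls, the highest value being that of combined replicate 3. Of these 6, the RBBP7 call was lost without each of 7 libraries in turn, and the MTA1 and ATF7IP calls without control replicate 1 or control replicate 3. With only the compared groups fitted, the calls of EHMT2, KDM1A, MTA1, RBBP7 and ATF7IP were lost. TRIM28 held 63.3, 66.2 and 105 FPKM in the combined group (0.45 above control, limma adjusted p = 0.0791).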

How the data were processed

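RNA of 12 Caco-2 libraries (4 groups of 3, groups and replicate numbers from the labels) was read as 150-base pairs, per the labels' protocols. The values deposited by the authors are FPKM per gene and library. The submitters' processing notes name Cufflinks 2.2.1, TopHat2 2.0.13, Cuffdiff, Cuffnorm and cutadapt 1.10, and hg19 as the build. Annotation, scaling between libraries and depth were not given in the sources used, so no count test or interval of counting error was made. Loci are printed as deposited.

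log2(FPKM + 1) was fitted in limma 3.58.1 (R 4.3.3) for genes averaging 1 FPKM or more, with 1 mean per group over the 12 libraries, an empirical Bayes trend and 8 residual degrees of freedom. Tests were two-sided, and p-values were adjusted (Benjamini-Hochberg) across every gene of each of 5 comparisons. The script was tested on simulated data. Alternatives were other pseudocounts (0.1, 0.5), filters (none, 0.5 FPKM), centring, quantile normalization, only the compared groups, the replicate block, leaving out each library and, added after seeing the data, a correction for transcript GC content (spline with 5 degrees of freedom).

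Fingers (C, 2 or 4 residues, C, 12 residues, H, 3 to 5 residues, H) and a loose letter pattern for the KRAB box in the first 250 residues were counted in the longest reading frame of GENCODE release 29 transcripts; the pattern can miss or add a box. GC content is that of these transcripts, and 94.0% of genes tested had a value. Promoters are from RefSeq.

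Named were the 12 members of highest mean level; up to 10 called, non-overlapping rises and falls per comparison by size; members of known interest; and TRIM28, SETDB1, CBX5 and called co-repressors. ZNF44, ZNF223, ZNF320, ZNF419, ZNF443, ZNF480, ZNF564, ZNF738, ZNF766, ZNF791, ZNF845, ZNF137P, ZNF296 and ZNF784, and DAXX among the co-repressors, were named after their values were seen. ZNF224 and ZNF230, given as neighbours that were not called, were also named outside these rules. The members and lists were chosen with earlier results of these data known.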

Additional observations from a re-analysis of the deposited data

Results flagged for a closer look

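SUV39H1 and DAXX, both on the co-repressor list, were the genes of that list or of the chromosome 19 zinc finger genes whose difference with CW14 was another in the presence of OTA than in its absence, by the interaction term. SUV39H1, a histone methyltransferase, held 8.11, 7.49 and 8.23 FPKM in controls, 4.62, 6.72 and 4.75 with CW14, 5.40, 4.07 and 5.42 with OTA and 7.63, 9.11 and 8.28 in the combined group (interaction 1.16, SE 0.23, limma adjusted p = 0.0277). CW14 libraries lay below the controls and combined libraries above the OTA libraries. DAXX, a histone chaperone, held 21.4, 21.6 and 19.98 FPKM in controls, 16.6, 19.1 and 17.4 with CW14, 18.3, 18.5 and 18.8 with OTA and 26.0, 24.5 and 24.6 in the combined group (interaction 0.65, SE 0.16, limma adjusted p = 0.0466). Both calls were lost without any of the control or OTA libraries and with the GC correction. SUV39H1 also lost its call without CW14 replicate 1 or CW14 replicate 3. The DAXX call was also lost without any CW14 library or combined replicate 1. It was lost as well with the 0.5 FPKM filter, centring, quantile normalization or the replicate block. The interaction was called for 3.33% of all genes tested.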

How the results depend on the processing

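Of 84 results called for a named gene in a comparison, 41 stayed called in every alternative in which the gene was tested, 43 lost it in at least 1, and 0 changed direction. Of 32 not called, 15 were called in some alternative. The number of members called with OTA was 45 in the reported fit and 72 with only the compared groups. Of all 12928 genes, 623 were higher and 1665 lower in the reported fit, and 2093 and 2528 with only the compared groups. Leaving out 1 library gave 24 to 71 members. For CW14 the number of members was 0, 1 with only the compared groups, and 0 to 1 leaving out 1 library. For the combined group against OTA it was 8, 0 with only the compared groups, 5 with no filter on low values, and 1 to 25 leaving out 1 library. All genes then had 32 higher and 38 lower with only the compared groups, and 759 and 858 of 20509 with no filter. For the combined group against control the number of members was 56, 34 with only the compared groups, and 37 to 82 leaving out 1 library (82 without combined replicate 2). All genes had 446 higher and 1150 lower with only the compared groups, and 2209 and 2567 without combined replicate 2. For the interaction the number of members was 0, and 0 to 7 leaving out 1 library. The 7, without combined replicate 2, stood beside 779 higher and 742 lower of all genes. With the GC correction the member counts were 51 (3 higher, 48 lower), 0, 9, 47 and 0 in the same order. Of all 12157 genes with a GC value, 1291 were then higher and 1593 lower with OTA. Where 1 library is left out, a group keeps 2 and the spread is pooled over all groups. The shared replicate numbers did not pair the libraries: 1 of 18 same-number pairs had deviations correlated over 0.1, and 1 of 12 libraries correlated best with its own number. With the number as a replicate block the member counts were 41, 0, 10, 58 and 0. All genes then had 489 higher and 1543 lower with OTA. The depth is unknown, and members under 1 FPKM could not be compared.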
